A study of Mus musculus with 2 samples.

Results

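The CHD genes are the chromodomain helicase DNA-binding remodelers Chd1 to Chd9. The set was fixed by name and held 9 of the 19059 features of the count matrices. The family was chosen by the measured Chd3 level over all nuclei, which was lower with Minnelide, so the Chd3 difference between the groups is given as a description with no test. The question is whether its 8 paralogs moved with it. Levels are in CPM, the unique molecular identifiers (UMIs) of a gene per 1000000 UMIs of all genes, summed over the nuclei of a tumor or of a cell class in a tumor.

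CHD proteins use the energy of ATP to slide, space or evict nucleosomes, and their paired chromodomains read histone tails or bind DNA. Chd1 and Chd2 act in the wake of RNA polymerase II and maintain nucleosome order over transcribed genes. Chd3, Chd4 and Chd5 are the alternative motor subunits of NuRD, a complex that couples nucleosome remodeling to histone deacetylation, and Chd6 to Chd9 form a group that acts largely at enhancers and promoters in development.

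The nuclei came from sarcomas of the dFLEx CDS mouse. In this model Cre and FLPE, both driven by the CAG promoter on plasmids electroporated into hind limb muscle, switch on the fusion oncogene CIC::DUX4, which joins the repressor capicua to the activation domain of DUX4. The untreated group held 4 tumors of genotype dFLEx CDS +/-. The other group held 4 dFLEx CDS tumors from mice given 0.42 mg/kg Minnelide, a water-soluble prodrug of the transcription inhibitor triptolide, for 21 days. The label of that group gives no zygosity, and the labels do not give the age of the animals. The CAG promoter is active in most cell types, so the plasmids do not fix which cell of the muscle gives rise to a tumor. The label of the first group says untreated, while the treatment study in mice used saline controls.

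After filtering, 59907 of 72338 deposited nuclei were retained. The median depth was 880 UMIs per nucleus in untreated tumor 4 and 2432 to 4037 UMIs in the other tumors. Untreated tumor 1 stood apart, with the highest scaling factor of the 8 over all nuclei (1.18) and in tumor-like nuclei (1.21), and the Chd3 differences that lean on it are also given without it. Each of 4 pairs of an untreated and a Minnelide tumor shared 49 to 132 nucleus barcodes. These were the pairs whose barcodes carried the same bases at the place read as a multiplex tag, and every other pair shared 0. No label names a run, and 1 multiplexed run per group was inferred from these barcodes. An effect of such a run and one of the drug cannot be told apart. Clusters were named from marker genes within each tumor. Tumor-like clusters, named from CIC::DUX4 targets such as Etv1, Etv4, Etv5 and Shc3, had at least 9 of 11 tumor markers raised, but in 12 of the 25 clusters at least 50% of the markers of another class were raised too, and 1 of the 25 had a tumor marker among its 10 leading genes. Nuclei left unnamed made up 2.31% to 57.8% of a tumor. In counts summed over nuclei, fewer cells of a type and less RNA per cell cannot be told apart.

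Chd3 and Chd4 are the CHD pair on which the results turn, and the 250 bases before their start sites are shown for that reason, read from the GRCm39 genome, the mouse build of the files, at the starts that GENCODE gives. Chd3 lies on chromosome 11 at 69234088 to 69260252 on the minus strand, and the stretch printed for it is chr11:69260253-69260502. Chd4 lies on chromosome 6 at 125072944 to 125107554 on the plus strand, with its stretch at chr6:125072694-125072943. Sequences run 5′ to 3′ on the strand of the gene, and capitals mark GGGCGG or its complement CCGCCC.
Chd3: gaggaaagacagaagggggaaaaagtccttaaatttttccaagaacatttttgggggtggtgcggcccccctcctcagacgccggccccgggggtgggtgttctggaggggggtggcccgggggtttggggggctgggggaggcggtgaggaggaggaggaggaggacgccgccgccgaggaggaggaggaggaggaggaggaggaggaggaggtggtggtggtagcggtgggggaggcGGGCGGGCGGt
Chd4: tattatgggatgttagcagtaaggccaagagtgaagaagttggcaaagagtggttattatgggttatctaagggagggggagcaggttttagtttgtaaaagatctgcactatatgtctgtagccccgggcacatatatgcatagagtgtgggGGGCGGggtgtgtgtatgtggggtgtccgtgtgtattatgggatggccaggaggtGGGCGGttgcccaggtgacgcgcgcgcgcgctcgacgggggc

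The motif GGGCGG, on either strand, was found in the stretch of both genes and of 38.9% of the 18953 protein-coding genes compared. The 4 octamer forms bound by capicua were searched on both strands, TGAATGAA, TGAATGGA, TCAATGAA and TCAATGGA, which were in 1.2%, 0.876%, 0.601% and 0.422% of promoters in that order. None of these octamers was in the stretch of any CHD gene, against 2.97% of all promoters with at least 1. The E-box CACGTG was also absent from the 9 stretches and was present in 6.45% of promoters. CpG pairs numbered 14 before Chd3 and 12 before Chd4, against a median of 8. GC content was 68% and 54%, against a median of 54%. These matches describe letters in these windows only.

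Chd3 was the CHD gene that set the groups apart. Its level over all retained nuclei was 77.6, 39.4, 46.2 and 43.8 CPM in untreated tumors 1 to 4. In Minnelide tumors 1 to 4 it was 16.8, 19.5, 21.1 and 23.3 CPM. Every Minnelide tumor lay below every untreated tumor, and untreated tumor 1 was the highest of the 8. Of all 13817 genes tested, 7.01% were lower in every Minnelide tumor in this way and 0.666% were higher in every one, and this contrast is the one that chose the set. The fitted fold was 0.438, a log2 difference of -1.19, and -1.01 without untreated tumor 1. Summed macrophage markers were also lower in every Minnelide tumor, by a narrow margin (259.9 against 260.7 CPM at the nearest). Summed T/NK, dendritic and osteoclast markers overlapped between the groups. Macrophage markers summed to 1092 CPM in untreated tumor 1, 261 to 437 CPM in the other untreated tumors and 175 to 260 CPM in Minnelide tumors, with 3 of 11 below in every Minnelide tumor. T/NK markers summed to 123 CPM in untreated tumor 1, 9.87 to 23.8 CPM in the other untreated and 3.4 to 10.8 CPM in Minnelide tumors, with 2 of 9 below in every one. Dendritic markers (3.88 to 16.9 against 2.18 to 4.89 CPM) had 2 of 7 below, and osteoclast markers (399 to 1763 against 233 to 511 CPM) had 0 of 8. No marker of these lists was at 0 in all tumors, and their part in the Chd3 difference was not tested.

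**Figure D1:**
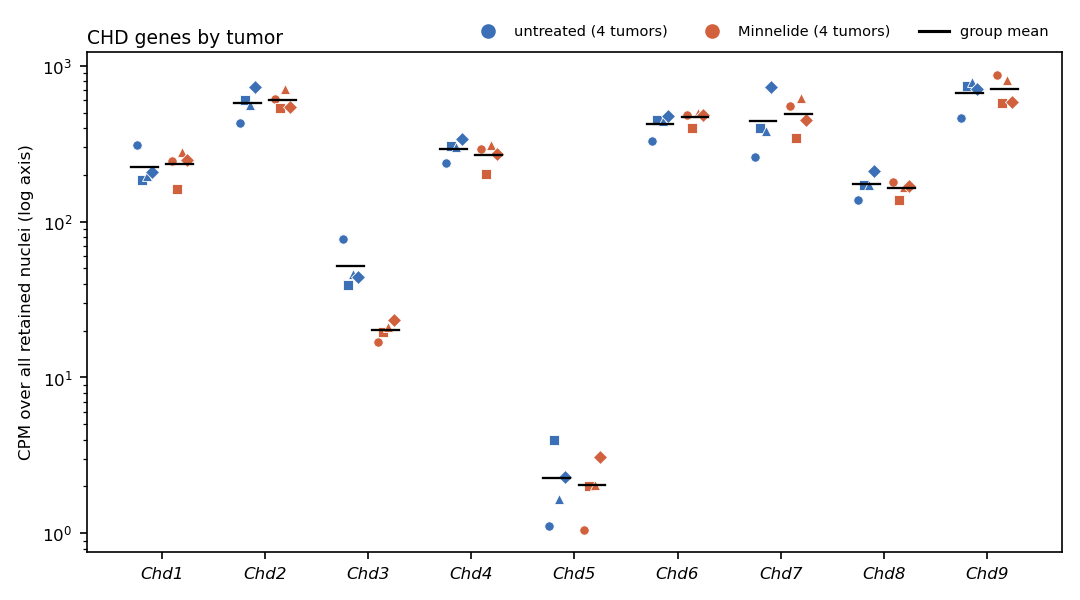
CPM of each CHD gene over all retained nuclei (log axis), 4 untreated tumors in blue and 4 Minnelide tumors in orange, with circles, squares, triangles and diamonds for tumors 1 to 4 and a line at the group mean. The Chd3 points separate by group, from 16.8 to 23.3 CPM with Minnelide against 39.4 to 77.6 CPM without, while the points of the 8 paralogs overlap.

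Chd4, the main NuRD motor in most tissues, did not separate the groups in CPM. It was at 236, 304, 299 and 336 CPM in untreated tumors 1 to 4, and at 290, 201, 308 and 270 CPM in Minnelide tumors 1 to 4. The lowest value of all was in Minnelide tumor 2 and the next lowest in untreated tumor 1. Chd5, a NuRD motor best known from neurons and testis, was near the limit of detection, with 37 to 84 UMIs per tumor and 1.06 to 4.00 CPM. The Chd4 log2 difference was -0.004 ± 0.20 (SE) with a 95% interval of -0.46 to 0.45, and that of Chd5 was -0.02 ± 0.51 with an interval of -1.17 to 1.14.

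The remodelers of elongating polymerase, Chd1 and Chd2, also overlapped between groups. Chd1 was at 310, 184, 194 and 208 CPM in the untreated tumors and at 245, 163, 279 and 246 CPM in the Minnelide tumors. Chd2 ranged from 429 to 727 CPM without and from 534 to 707 CPM with the drug. The group means differed by less than the spread within a group and stood at 224 ± 57.8 and 233 ± 49.7 CPM for Chd1 and at 578 ± 123 and 599 ± 80.8 CPM for Chd2 (SD, n = 4 each).

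Chd6 to Chd9 overlapped between the groups as well. Chd7, mutated in CHARGE syndrome, had the widest range of these genes, from 258 CPM in untreated tumor 1 to 724 CPM in untreated tumor 4, with Minnelide tumors at 549, 341, 619 and 447 CPM. Chd8, a remodeler tied to beta-catenin signaling and autism, was at 138 to 212 CPM without and 137 to 178 CPM with Minnelide. Chd6 lay between 328 and 478 CPM in untreated and between 398 and 497 CPM in Minnelide tumors. Chd9 lay between 459 and 781 CPM and between 576 and 874 CPM.

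Longer genes can collect more reads, so levels were also set per kilobase. Per kilobase of exon the order of medians was Chd2 at 40.4, Chd4 at 32.0, Chd9 at 30.6, Chd7 at 28.3, Chd6 at 23.8, Chd1 at 21.6, Chd8 at 10.2, Chd3 at 3.70 and Chd5 at 0.211 CPM per kb. Per kilobase of gene span Chd4, whose gene covers 34.6 kb, came first with 8.51 CPM per kb and Chd3, over 26.2 kb, was again next to last with 1.2 CPM per kb. The labels name a 3′ kit, whose counts need not scale with length, and whether probes were counted instead is not settled, and reads shared between paralogs or with antisense transcripts cannot be assigned here.

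None of the 8 paralogs passed the test between the groups. With edgeR's quasi-likelihood test and Benjamini-Hochberg adjustment over 13817 genes, 0% of genes were called, and 0 paralogs among them. At an unadjusted p under 0.05 stood 1353 genes and 0 paralogs. DESeq2 called 183 genes, or 1.32%, and again 0 paralogs. Paralog log2 differences ran from -0.02 for Chd5 to 0.27 for Chd7 with a median of 0.19, beside 0.01 over all genes. The smallest adjusted p by edgeR's quasi-likelihood test was 0.643, for Chd6 (log2 difference 0.27 ± 0.19).

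The intervals say how large a fall could have gone unseen. Leaving Chd5 aside, the lowest 95% bound of any paralog was -0.54, for Chd7. The lower bound of Chd5 was -1.17, close to the Chd3 difference itself. Scaling moved all genes together, since TMM factors averaged 0.07 on the log2 scale in untreated and -0.07 in Minnelide tumors, so fitted differences over all nuclei stand 0.15 above those of plain CPM, and 0.125 above in tumor-like nuclei. On plain CPM the mean of Chd4 with Minnelide was 0.91 times the untreated mean.

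**Figure D2:**
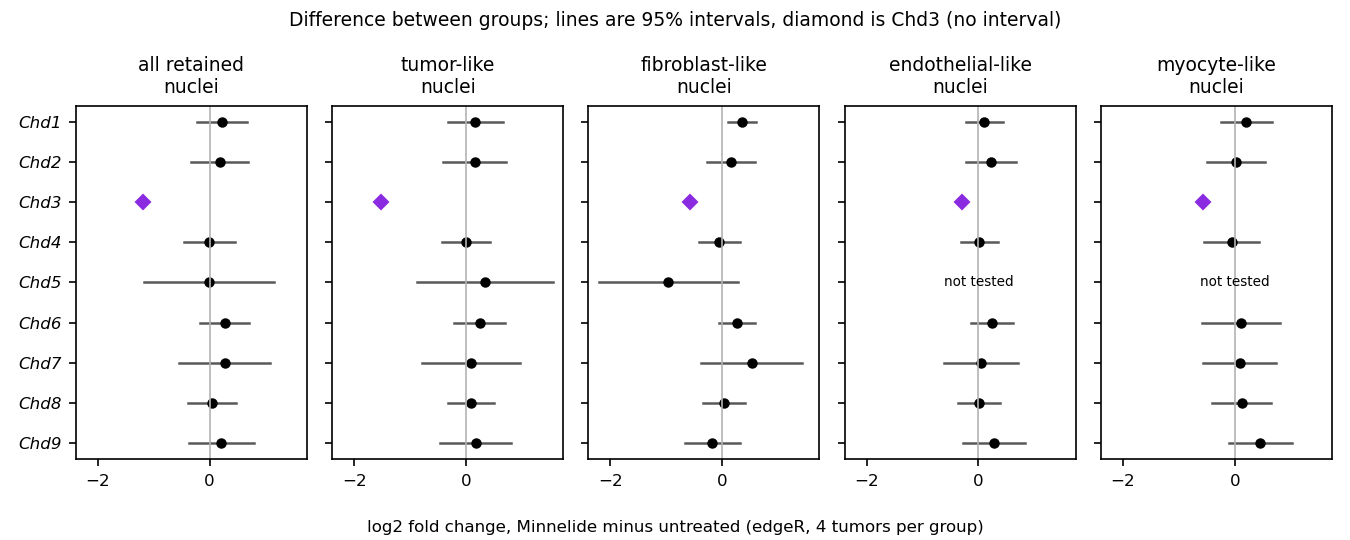
Log2 fold change of each CHD gene, Minnelide minus untreated (edgeR, 4 tumors per group), over all retained nuclei and in 4 cell classes, with 95% intervals as lines and Chd3 as a diamond with no interval. Chd3 lies left of 0 in each panel, from -1.52 in tumor-like to -0.30 in endothelial-like nuclei, and Chd1 in fibroblast-like nuclei is the point whose interval, 0.11 to 0.61, leaves out 0.

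In tumor-like nuclei the same contrast was wider for Chd3 than over all nuclei and was not called for its paralogs. Chd3 was at 73.4, 20.7, 30.5 and 31.6 CPM in untreated and at 10.3, 15, 10.7 and 12.2 CPM in Minnelide tumors 1 to 4. The groups did not overlap, as for 3.75% of the 12546 genes tested that were lower in every Minnelide tumor (0.964% were higher in every one), and 0 of 8 paralogs separated. The fitted log2 difference was -1.52, a fold of 0.349, and -1.17 without untreated tumor 1, whose tumor-like nuclei were also highest for Chd1 at 367 CPM and lowest for Chd9 at 454 CPM. The values rest on 125 to 528 Chd3 UMIs per tumor. Nuclei left unnamed had 34.64 to 87.95 CPM of Chd3 in untreated and 13.85 to 20.4 CPM in Minnelide tumors. Their mean with Minnelide was 0.28 times the untreated mean on plain CPM, against 0.309 times in tumor-like nuclei. The unnamed nuclei were not the same mix in both groups, so this ratio does not compare like nuclei. Fibroblast was the closest class of unnamed clusters in untreated tumors 2 and 3 (248 and 519 nuclei), and of no unnamed cluster with Minnelide. The macrophage marker F13a1 was among the leading genes of 245 unnamed nuclei of untreated tumor 1. The osteoclast marker Atp6v0d2 led 215 in Minnelide tumor 1. Unnamed nuclei made up 21.7% to 57.8% of untreated and 2.31% to 27.2% of Minnelide tumors, and their part in the difference over all nuclei was not tested.

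Chd4 in tumor-like nuclei was at 256, 311, 305 and 341 CPM without the drug and at 303, 229, 314 and 279 CPM with it. Its log2 difference was -0.001 ± 0.19, with a 95% interval of -0.43 to 0.43. Over the 8 paralogs the differences ran from -0.001 to 0.33 (Chd5), and the edgeR quasi-likelihood test with Benjamini-Hochberg adjustment called 0 of them and 0% of all genes, with a smallest adjusted p of 0.772. At an unadjusted p under 0.05 stood 846 genes and 0 paralogs, and DESeq2 called 55 genes (0.438%) and 0 paralogs.

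Markers of other cells in these tumor-like nuclei differed between tumors. Fibroblast markers summed to 1340 to 6340 CPM in untreated and 1290 to 2500 CPM in Minnelide tumors, and osteoclast markers to 153 to 1480 CPM and 151 to 315 CPM. Endothelial markers summed to 4212 CPM in untreated tumor 1 alone, to 421 to 786 CPM in the other untreated tumors and to 402 to 681 CPM in Minnelide tumors. Macrophage markers summed to 590 CPM in untreated tumor 1, to 183 to 282 CPM in the other untreated and to 110 to 207 CPM in Minnelide tumors, with 1 of 11 lower in every Minnelide tumor. No marker of these lists was at 0 in all tumors, and their part in the Chd3 difference was not tested.

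Fibroblast-like nuclei held more Chd3 and a smaller gap. The class did not hold the same clusters in every tumor. Clusters led by Col14a1 and Abca8a stayed unnamed in untreated tumors 2 and 3 (248 and 519 nuclei), where the Schwann marker Scn7a led too. Clusters led by either gene were named in untreated tumor 1 (334 nuclei) and Minnelide tumors 2 and 4 (513 and 178 nuclei). The effect of this naming on the values was not tested. Chd3 was at 91.9, 109, 117 and 74.9 CPM in untreated and at 58.7, 59.0, 69.9 and 71.2 CPM in Minnelide tumors, which did not overlap, as for 4.03% of 11106 genes. The log2 difference was -0.58. Chd1 went the other way in these nuclei, at 163, 152, 167 and 171 CPM without and 200, 192, 208 and 220 CPM with Minnelide. All 4 Minnelide tumors were above all untreated ones, as for 3.35% of genes, and the log2 difference of Chd1 was 0.36 ± 0.11.

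This Chd1 difference failed the correction, since the adjusted p was 0.335 by edgeR's quasi-likelihood test and 0.0751 by DESeq2. It was the 1 paralog among 1225 genes at an unadjusted p under 0.05 in fibroblast-like nuclei, where edgeR called 0% of genes and DESeq2 called 1.96%, with 0 paralogs in either. Chd7 had untreated values of 85.6, 164, 166 and 348 CPM and Minnelide values of 287, 209, 335 and 255 CPM. That overlap left a log2 difference of 0.53 ± 0.40 for Chd7, and Chd5 had -0.96 ± 0.55, which was -0.36 without untreated tumor 2, at 15.3 CPM against 3.73 to 5.99 CPM in the other untreated tumors.

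In endothelial-like nuclei Chd3 overlapped between groups, at 27.0, 38.4, 47.0 and 40.1 CPM against 21.0, 34.5, 30.5 and 37.1 CPM, where 3.25% of genes were lower and 2.41% higher in every Minnelide tumor. In myocyte-like nuclei it was low throughout, at 17.2, 21.8, 17 and 17.2 CPM against 14.2, 7.92, 16.5 and 15.9 CPM. The myocyte-like values did not overlap, as for 1.21% of genes that were lower (1.14% were higher). The values of Minnelide tumors 3 and 4 rest on 4 and 3 Chd3 UMIs, where 3 UMIs are worth 12.4 and 15.9 CPM, so 1 more Chd3 UMI in either would end the separation. The fitted log2 differences of Chd3 were -0.30, or -0.46 without untreated tumor 1, in endothelial-like and -0.56 in myocyte-like nuclei. Of the 7 paralogs tested in each class, edgeR's quasi-likelihood test and DESeq2 called 0, with 0% of all genes called by edgeR in both, 0.268% by DESeq2 in endothelial-like and 0% in myocyte-like nuclei. At an unadjusted p under 0.05 stood 986 and 419 genes, and 0 paralogs.

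Whether the drug contrast itself differed between tumor-like and fibroblast-like nuclei was asked with an interaction term, each tumor as a block. The fibroblast-like class left out the unnamed clusters of untreated tumors 2 and 3 given above. The Chd3 contrast differed by -0.89 on the log2 scale in tumor-like nuclei, given as a description, and by -0.51 without untreated tumor 1. Of the 8 paralogs edgeR called 0, where it called 0.467% of 12631 genes, and DESeq2 called 1, Chd7. Chd7 came nearest, with a difference of -0.51 ± 0.14 between the contrasts (adjusted p = 0.168 by edgeR's quasi-likelihood test, 0.0399 by DESeq2, which called 2.77% of genes). Chd5 followed with 1.29 ± 0.41 (adjusted p = 0.256 by edgeR's quasi-likelihood test), and these were the 2 paralogs at an unadjusted p under 0.05.

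Shares of the family's UMIs, not corrected for gene length, give the same contrast without the library total. Over all nuclei Chd3 made up 3.47% of CHD UMIs in untreated tumor 1, at least 1.28% in the other untreated tumors and 0.518% to 0.843% in Minnelide tumors. Its share among the NuRD motors Chd3, Chd4 and Chd5 was 15.2% ± 6.40 (SD, n = 4) without and 7.11% ± 1.47 (n = 4) with Minnelide. The untreated mean was 12% without untreated tumor 1. The summed level of the other 8 genes ran from 2159 to 3389 CPM without and from 2352 to 3391 CPM with the drug, so the family total overlapped.

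Among the paralogs, Chd9 held 23.5% ± 3.53 and 24.0% ± 2.42 of CHD UMIs in the untreated and Minnelide groups, Chd2 20.1% ± 0.978 and 20.4% ± 1.57, and Chd4 10.3% ± 0.337 and 9.05% ± 0.548 (SD, n = 4 each). The Chd9 and Chd2 shares overlapped between groups. The Chd4 share was lower in every Minnelide tumor, though the nearest values were 9.8% in untreated tumor 4 and 9.79% in Minnelide tumor 4. In tumor-like nuclei the Chd4 shares overlapped, at 9.23% to 10.8% without and 8.49% to 9.75% with Minnelide. How many of all genes separate on such a scale was not computed. In tumor-like nuclei the Chd3 share of the NuRD motors was 22.2%, 6.21%, 9.05% and 8.47% in untreated and 3.28%, 6.11%, 3.29% and 4.17% in Minnelide tumors 1 to 4.

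**Figure D3:**
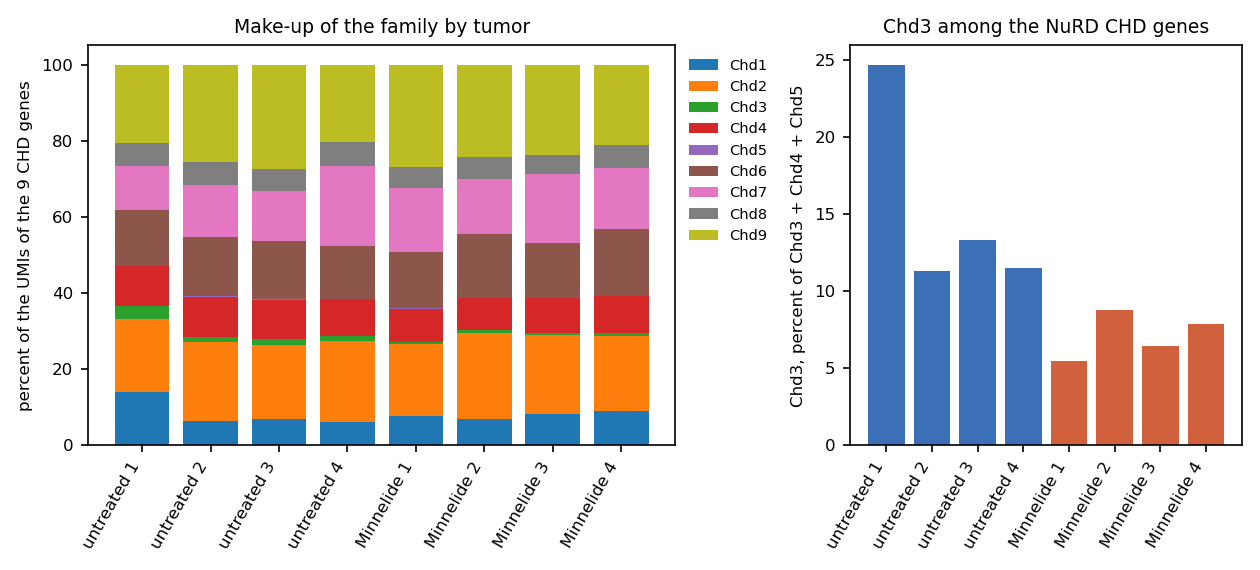
Left, the percent of all CHD UMIs that each gene takes, stacked for each of the 8 tumors over all retained nuclei; right, Chd3 as a percent of Chd3, Chd4 and Chd5 in the same tumors (bars start at 0). The right panel runs from 11.3% to 24.7% in untreated tumors and from 5.46% to 8.75% in Minnelide tumors.

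The order of levels was set over 7 classes, each with at least 50 nuclei in 6 or more tumors. A T/NK-like class of 75 nuclei was named in untreated tumor 1 alone and stays out of the order. Its Chd3 level, from 24 UMIs, was 186 CPM, above the osteoclast-like 110 CPM and macrophage-like 100 CPM of that tumor. Over the 7 classes the median of Chd3 over tumors was 94.8 CPM in osteoclast-like, 74.7 in macrophage-like, 73.0 in fibroblast-like, 58.3 in pericyte-like, 35.8 in endothelial-like, 17.9 in tumor-like and 16.8 CPM in myocyte-like nuclei. Neighbours in this order were not fully separated: macrophage-like nuclei exceeded fibroblast-like nuclei in 3 of 7 tumors, and tumor-like exceeded myocyte-like nuclei in 4 of 8. These medians pool both groups, and not in equal numbers. Osteoclast-like nuclei had 4 untreated and 2 Minnelide tumors, macrophage-like nuclei 3 and 4, and fibroblast-like nuclei 4 and 4. Untreated means of these 3 classes were 104.8, 77.9 and 98.2 CPM in that order. Minnelide means were 59.3, 64.0 and 64.7 CPM, so the order of the pooled medians did not hold within either group. Tumor-like Chd3 did not overlap between the groups, with means of 39.1 CPM without and 12.1 CPM with Minnelide. Myocyte-like means were 18.3 and 13.65 CPM, so the gap between these classes differed by group. Endothelial-like nuclei exceeded tumor-like nuclei in 7 of 8 tumors, the exception being untreated tumor 1. Classes were named without any CHD gene, and the members were left out of the genes used to cluster nuclei.

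Tumor-like nuclei held less Chd3 than fibroblast-like nuclei in 8 of 8 tumors, with a median ratio of 0.229 and a range of 0.165 to 0.801. Chd5 was also lower in 8 of 8, at levels of 0.556 to 2.42 CPM in tumor-like and 1.87 to 15.3 CPM in fibroblast-like nuclei. Of 9702 genes compared between these classes, 19.3% were lower in tumor-like nuclei in every tumor and 19.6% were higher. Chd2, Chd6, Chd7 and Chd8 were the 4 members higher in every tumor. Chd5 was too low to be among the genes compared.

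Chd7 had higher levels in tumor-like than in fibroblast-like or pericyte-like nuclei. It was at 307, 470, 417 and 886 CPM in tumor-like nuclei of untreated tumors and at 593, 356, 659 and 470 CPM in those of Minnelide tumors. The ratio to fibroblast-like nuclei of the same tumor ran from 1.7 to 3.55, with a median of 2.27. Against pericyte-like nuclei the median ratio was 2.86 over 7 tumors, with a lowest value of 1.65. Endothelial-like nuclei had more Chd7 than tumor-like nuclei in 7 of 8 tumors, with a median of 558 CPM.

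Most of the family was lower in myocyte-like than in tumor-like nuclei. Chd1, Chd2, Chd4, Chd6, Chd7 and Chd9 were higher in tumor-like than in myocyte-like nuclei in 8 of 8 tumors, 6 of 9 members where 21.6% of all genes were (17.5% were lower). Chd5 was again too low to be among the genes compared. The median ratios ran from 1.27 for Chd4 to 1.72 for Chd9. Against endothelial-like nuclei 4 members, Chd2, Chd4, Chd6 and Chd9, were higher in all 8 tumors (19.3% of genes) and 0 were lower (19.1%). Of the 7 classes, endothelial-like nuclei had the lowest median of Chd2, at 426 CPM, and of Chd4, at 237 CPM.

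The myeloid classes differed from tumor-like nuclei in fewer members. Against macrophage-like nuclei, named in 7 tumors, Chd2 and Chd6 were higher (13.2% of genes) and Chd3 lower (22.3%) in every tumor. Against osteoclast-like nuclei, named with at least 50 nuclei in 6 tumors, Chd1 was higher (18% of genes) and Chd3 lower (21.2%) in every tumor. Against pericyte-like nuclei Chd1, Chd2 and Chd7 were higher in all 7 tumors (12.3% of genes) and 0 members were lower in all (13.2%). Medians of Chd4 and Chd8 over the 7 classes spanned 237 to 304 CPM and 143 to 181 CPM.

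**Figure D4:**
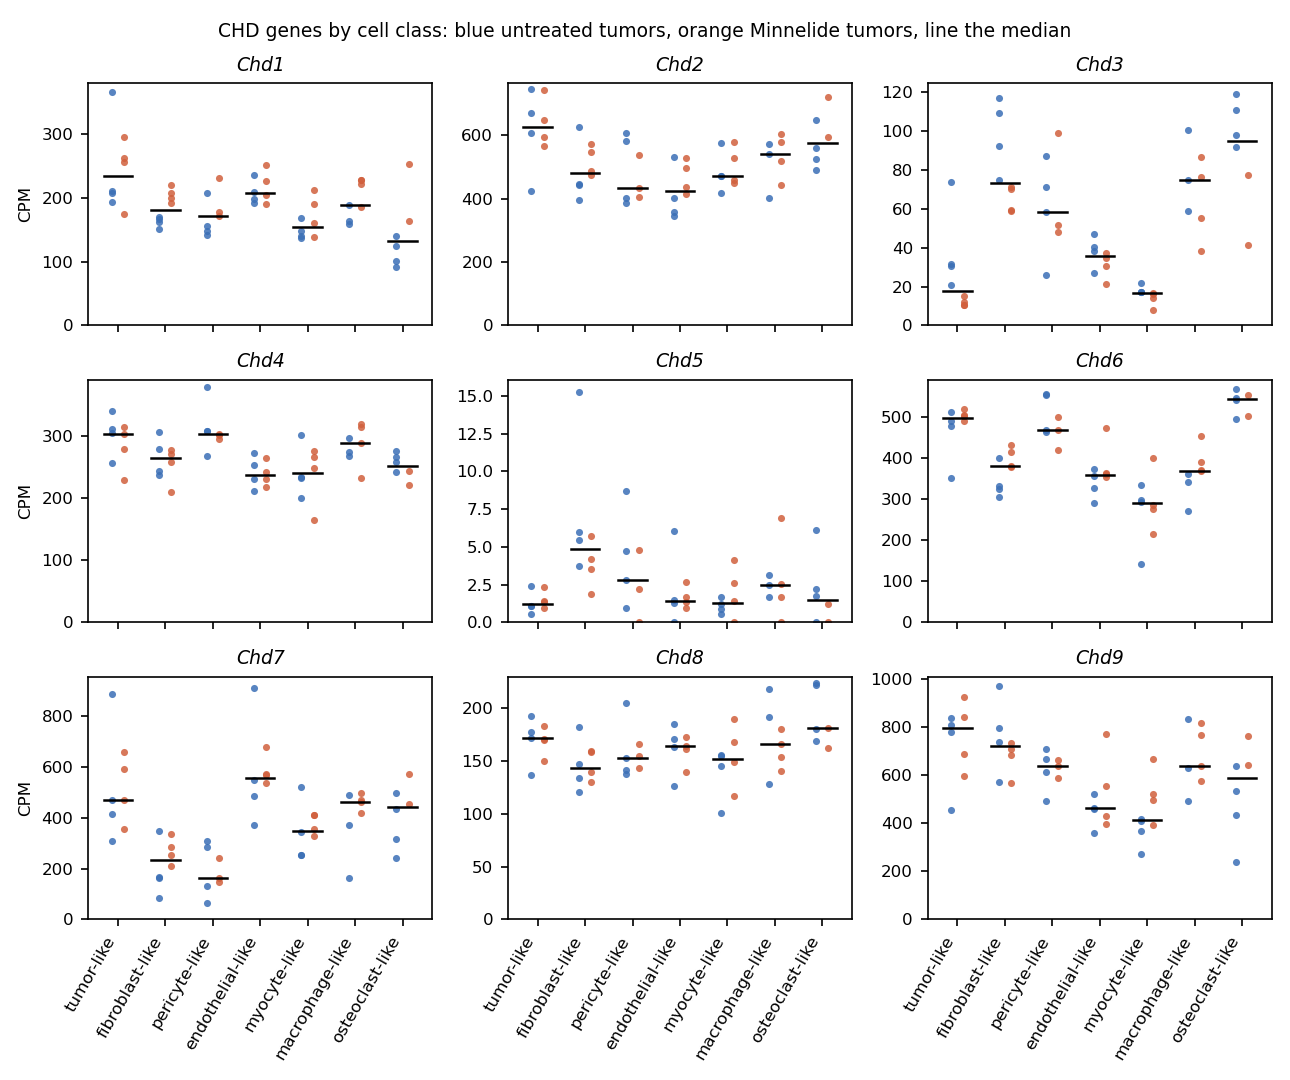
CPM of each CHD gene in 7 cell classes, 1 point per tumor with at least 50 nuclei of the class, untreated in blue and Minnelide in orange, with a line at the median over tumors. The Chd3 median is 17.9 CPM in tumor-like and 16.8 CPM in myocyte-like nuclei against 73.0 to 94.8 CPM in fibroblast-like, macrophage-like and osteoclast-like nuclei. The osteoclast-like median rests on 4 untreated and 2 Minnelide tumors. In tumor-like nuclei the Chd3 points separate by group, from 10.3 to 15 CPM with Minnelide against 20.7 to 73.4 CPM without. Chd7 is lowest in pericyte-like nuclei at a median of 163 CPM.

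In the smaller classes the Chd3 values of the groups were as follows. Macrophage-like nuclei had 100, 74.7 and 58.9 CPM in untreated tumors 1 to 3 and 55.1, 38.0, 86.4 and 76.2 CPM in Minnelide tumors. Osteoclast-like nuclei had 91.8 to 119 CPM in 4 untreated tumors and 41.3 and 77.3 CPM in the 2 Minnelide tumors that held enough of them. Pericyte-like nuclei had 26.1 to 87.0 CPM in 4 untreated and 47.9 to 98.7 CPM in 3 Minnelide tumors. The macrophage-like and pericyte-like Chd3 values overlapped between groups, and the osteoclast-like values did not. Of the paralogs, Chd6 did not overlap in macrophage-like nuclei, at 271.4 to 360.5 CPM without and 367.4 to 452.2 CPM with Minnelide. In osteoclast-like nuclei Chd1 (92.58 to 140.7 against 164.8 to 254.2 CPM) and Chd9 (238.3 to 639.4 against 641.3 to 760.1 CPM) did not overlap. The other paralogs overlapped. How many of all genes separate in these classes was not computed. Classes missing from a tumor were not fitted.

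Over 52 profiles, each 1 of the 7 classes in 1 tumor, the likeness of Chd3 to its paralogs was weak. Pearson's r of log2(CPM + 1) between Chd3 and a paralog ran from -0.41 for Chd7 to 0.27 for Chd5, and was 0.23 for Chd4. The highest values between paralogs were those of Chd2 with Chd7, Chd8 and Chd9 and Chd6 with Chd8, each at 0.52. Profiles of 1 tumor share a library and its depth, so these values are descriptions.

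The 5 genes most like Chd3 among 9756 compared were Sh3kbp1, an adaptor of receptor endocytosis, with r = 0.880, Mdfic at 0.826, Tacc1 at 0.824, the small GTPase Rab31 at 0.824 and Ostf1 at 0.822. Over all nuclei their log2 differences with Minnelide were -0.56, -0.95, -1.27, -0.25 and -0.46, from profiles of the same tumors, and none was called by edgeR's quasi-likelihood test (adjusted p from 0.477 to 0.591). The Tacc1 difference rests on untreated tumor 1, at 521 CPM against 146 to 167 CPM in the other untreated tumors, and was -0.73 without it. Sh3kbp1 stood at 164, 147, 182 and 136 CPM in untreated and at 79.9, 121, 87.3 and 97.0 CPM in Minnelide tumors. These levels did not overlap, as for the 7.01% of all genes that were lower in every Minnelide tumor. Mdfic and Tacc1 separated as well, while Rab31 and Ostf1 overlapped. The genes were picked for likeness to Chd3 over profiles of both groups, so their differences are no test of a shared fall.

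A contrast that the choice of the set did not use is that between dividing and other tumor-like nuclei of the same tumor. Nuclei with at least 3 UMIs of mitotic genes such as Mki67, Top2a and Cenpf after thinning to 1000 UMIs were set against those with 0. They made up 6.54% of the tumor-like nuclei with at least 1000 UMIs in untreated tumor 1 and 19.2% to 31.6% in the other tumors. With each tumor as a block, edgeR's quasi-likelihood test called 630 of 10903 genes higher (5.78%) and 475 lower (4.36%), and DESeq2 called 4.86% higher and 2% lower.

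Chd3 was lower in mitotic nuclei in 8 of 8 tumors. Its CPM in mitotic and other nuclei was 56.6 and 73.0, 19.99 and 23.3, 26.4 and 36.3, and 30.8 and 32.7 in untreated tumors 1 to 4. In Minnelide tumors 1 to 4 it was 9.44 and 11.2, 10.3 and 16.7, 8.20 and 10.3, and 10.6 and 15.9. The log2 difference was -0.34 ± 0.09, with an adjusted p of 0.022 by edgeR's quasi-likelihood test and 0.0661 by DESeq2. The mitotic values rest on 16 to 145 Chd3 UMIs per tumor, and median UMIs per nucleus were 1873 to 4416 in mitotic and 1964 to 3792 in other nuclei.

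Chd6 was higher in mitotic nuclei in 8 of 8 tumors, with ratios of 1.01 to 1.18. In untreated tumors 1 to 4 it was at 410, 526, 504 and 555 CPM in mitotic and at 347, 466, 461 and 487 CPM in other nuclei. The Minnelide tumors had 512, 505, 531 and 496 CPM against 496, 478, 501 and 489 CPM. The log2 difference was 0.13 ± 0.04, with an adjusted p of 0.0284 by edgeR's quasi-likelihood test and 0.0221 by DESeq2.

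Both calls depended on single tumors. Over the fits that each left out 1 tumor, the edgeR adjusted p ran from 0.0258 to 0.0797 for Chd3, lost without untreated tumor 3 or Minnelide tumor 4, and from 0.0112 to 0.0918 for Chd6, lost without untreated tumor 2, 3 or 4 or Minnelide tumor 2 or 3. The other 6 paralogs tested lay between -0.01 (Chd1) and 0.07 (Chd4), and 0 of them were called. Fibroblast markers were lower in mitotic nuclei in 7 of 8 tumors (median ratio 0.938), endothelial markers in 7 (0.887) and osteoclast markers in 7 (0.932), while macrophage markers were lower in 2 (1.08). Their part in the Chd3 difference was not tested.

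**Figure D5:**
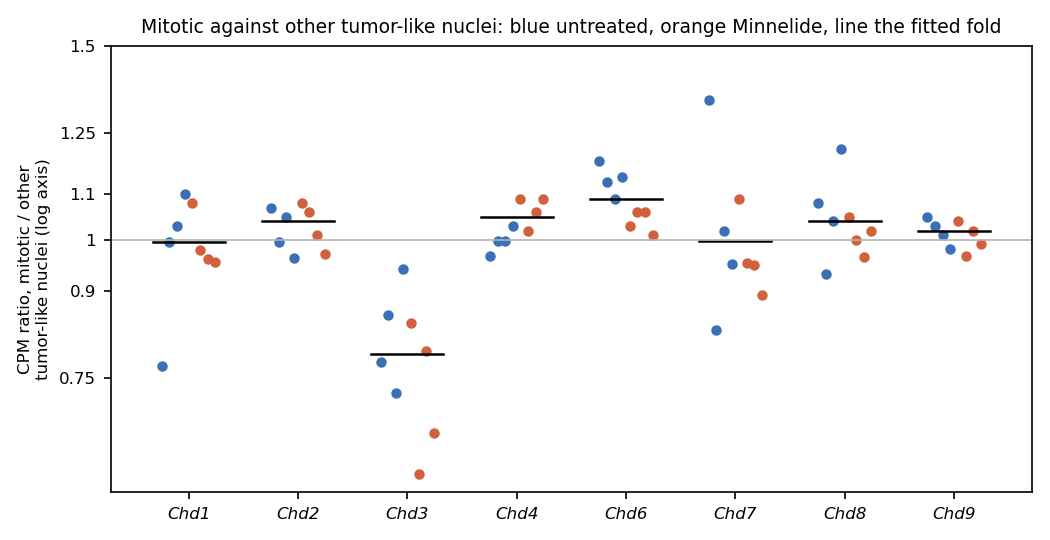
Ratio of CPM in mitotic to CPM in other tumor-like nuclei of the same tumor (log axis), 1 point per tumor, untreated in blue and Minnelide in orange, with a line at the fitted fold. All 8 Chd3 points lie below 1, from 0.615 to 0.942, and all 8 Chd6 points lie above 1. Chd5 had too few UMIs to be tested.

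Partners and relatives of the CHD proteins, from lists of other remodelers, gave 0 calls by edgeR or DESeq2 between the groups. Of all genes, edgeR called 0% and DESeq2 1.32% over all nuclei, so 0 calls do not set these lists apart. Over all nuclei the medians of the log2 difference were 0.14 for 11 tested NuRD partners, 0.11 for 5 partners of the Chd4 complex ChAHP, 0.21 for 26 SWI/SNF genes, 0.08 for 11 ISWI genes, 0.11 for 18 genes of INO80, SRCAP and EP400 and 0.20 for 13 other SNF2 ATPases. The median over all genes was 0.01. At an unadjusted p under 0.05 stood 4 of the 84 tested (4.76%), Smarca1, Mbtd1, Epc2 and Smarcad1, against 9.79% of all genes. Smarca1, the ISWI motor SNF2L, was the lowest of them at -1.04 ± 0.41, with 5.88, 10.9, 14.8 and 11.0 CPM in untreated and 4.34, 7.08, 5.05 and 2.53 CPM in Minnelide tumors. Its groups overlapped through untreated tumor 1 and Minnelide tumor 2. The NuRD partners with the smallest p were Mbd3, at 0.55 ± 0.33, Gatad2b, at 0.22 ± 0.16, and Rbbp7, at 0.17 ± 0.14, with adjusted p of 0.595, 0.654 and 0.669 by edgeR's quasi-likelihood test. Mbd3 and Gatad2b hold the remodeling and deacetylase modules of NuRD together, and Rbbp7 binds histones.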

How the data were processed

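Nuclear RNA of 8 mouse tumors was sequenced on the 10x platform. The labels name a 3′ kit, but whether the 19059 features come from 3′ reads or from a probe set is not settled, so levels per kilobase and remarks on antisense reads are tentative. The authors deposited raw UMI counts per gene and nucleus as 1 filtered matrix per tumor, aligned to mm39 (Cell Ranger 7.0.1 per the labels, 9.0.1 per the file headers). Groups came from the treatment labels, and file names were not used to split tumors further. Each label covers 4 tumors and does not say that they came from separate animals, so p-values measure only the spread between these tumors.

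Nuclei were kept with at least 200 genes and a posterior under 0.75 of being compromised in a mixture model of mitochondrial share and gene number, which removed 7951 nuclei. Predicted doublets (4480, at 0.8% per 1000 nuclei) were then removed. This left 15972646 to 62433816 UMIs per tumor. Each tumor was clustered on 2000 variable genes, 30 principal components and 40 neighbors at Leiden resolution 1 (scanpy 1.11.5, igraph 0.11.9). Clusters were named for the marker class most raised on average. Raised meant 1.5-fold above a baseline, the 10th percentile over the clusters of the same tumor with 20 CPM added to both, and detection in 5% of nuclei, and at least 3 raised markers were needed. It stayed unnamed where markers of another class led, where its own markers were weak or its nuclei shallow, or where a second class came within 0.5. This scoring was set after clusters and class sizes had been seen, in several versions, and the neighbor graph was changed after results were known so that clusters do not vary with rounding error. A class entered a tumor with at least 50 nuclei. The T/NK-like class of untreated tumor 1 was left out of comparisons and likeness.

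Counts were summed per tumor, or per tumor and class, and fitted over all genes passing filterByExpr with edgeR 4.0.16 (R 4.3.3, limma 3.58.1), using TMM factors, robust quasi-likelihood dispersions and Benjamini-Hochberg adjustment at 0.05. The interaction and mitotic fits had tumor as a block. DESeq2 1.42.0 was the alternative test, and the scripts were tested on simulated data. Errors are SE of log2 differences or SD over tumors. Named genes are the 9 members, the 3 of each remodeler list with the smallest p over all nuclei, and the 5 most like Chd3 in log2(CPM + 1) among genes of at least 10 CPM; Brd9, Baz1b, Epc1, Brd8 and Rad54l were named after their values were seen. The members and all lists were chosen with earlier results of these data known.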

Additional observations from a re-analysis of the deposited data

Results flagged for a closer look

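Each group of 4 tumors was tested for 1 value far from the other values, by setting its gap to the nearest value against the whole range of the group. Of 90 groups tested 4 held such a value, and chance flags about 1 in 20 groups (5%), so this number is near what chance gives. In tumor-like nuclei of untreated tumor 1, Chd1 was at 367.1 CPM against 193.2 to 211.8 CPM in the other untreated tumors. In the same nuclei Chd9 was at 454 CPM against 778.1 to 838.3 CPM. In endothelial-like nuclei of Minnelide tumor 1, Chd6 was at 473.4 CPM against 353.8 to 364.2 CPM. In myocyte-like nuclei of untreated tumor 2, Chd3 was at 21.77 CPM against 16.99 to 17.25 CPM. The causes were not tested.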

How the results depend on the processing

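Over all nuclei and within each class, 0 paralogs were called between the groups under every alternative that was run: DESeq2, RLE size factors, no low-count filter, doublets kept, all deposited nuclei, coarser clusters, stricter naming and leaving out each tumor. The main edgeR fits of these contrasts called 0% of all genes, so a count of 0 does not set the paralogs apart from other genes. For the drug contrast between tumor-like and fibroblast-like nuclei, DESeq2 called 1 gene (Chd7) where edgeR called 0. In mitotic nuclei edgeR called 2 genes, DESeq2 called 1 (Chd6), the fit with no low-count filter called 1 (Chd3), and leaving out each tumor gave 0 to 2.

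Small log2 differences changed sign. Over all nuclei Chd4 (-0.004) became 0.020 with DESeq2 and with RLE and 0.009 with no filter, and Chd5 (-0.015) became 0.006 with DESeq2 and with RLE, 0.009 with doublets kept and 0.063 with all deposited nuclei. In tumor-like nuclei Chd4 became 0.008 with no filter and 0.010 with coarser clusters. Coarser clusters took Chd8 to -0.001 in endothelial-like nuclei. In myocyte-like nuclei Chd2 became -0.043 with no filter, -0.016 with doublets kept and -0.075 with stricter naming, which also took Chd7 to -0.047. A mitotic gate of 2 UMIs took Chd1 to 0.027. Leaving out each tumor gave these ranges over all nuclei: Chd4 -0.141 to 0.107, Chd5 -0.279 to 0.413 and Chd8 -0.096 to 0.183. In tumor-like nuclei they were -0.050 to 0.301 for Chd2, -0.153 to 0.093 for Chd4, -0.169 to 0.514 for Chd7, -0.072 to 0.194 for Chd8 and -0.059 to 0.274 for Chd9. In fibroblast-like nuclei they were -0.128 to 0.062 for Chd4 and -0.076 to 0.164 for Chd8. In endothelial-like nuclei they were -0.061 to 0.088 for Chd4, -0.127 to 0.394 for Chd7 and -0.105 to 0.119 for Chd8. In myocyte-like nuclei they were -0.087 to 0.122 for Chd2, -0.188 to 0.018 for Chd4, -0.148 to 0.238 for Chd6, -0.104 to 0.365 for Chd7 and -0.059 to 0.198 for Chd8. In mitotic nuclei they were -0.034 to 0.040 for Chd1 and -0.039 to 0.031 for Chd7. The causes were not tested.

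Counts of members that differed between classes in every tumor moved with naming, which leaves fewer tumors to compare. Stricter naming gave 7 higher and 2 lower against endothelial-like nuclei over 3 tumors. Against pericyte-like nuclei it gave 5 higher and 1 lower over 2 tumors. Agreement in every tumor is easier to reach with so few tumors, and the share of all genes was not computed for this naming. The mean over nuclei gave 1 higher against macrophage-like nuclei. Leaving out each tumor gave 0 to 1 lower against endothelial-like and against pericyte-like nuclei, 1 to 2 lower against macrophage-like nuclei, and 1 to 2 higher and 1 to 2 lower against osteoclast-like nuclei. In tumor-like nuclei the Chd3 share with Minnelide was 0.397% of CHD UMIs and 4.21% of the NuRD motors, against 0.7% and 7.11% over all nuclei. No paired analysis was possible because the labels give no replicate numbers shared between groups. Stricter naming could not be fitted for tumor-like, fibroblast-like and endothelial-like nuclei, nor coarser clusters for myocyte-like nuclei, since too few tumors kept the class. With 4 tumors a group and Chd5 at 37 to 84 UMIs per tumor, a change of Chd5 smaller than its interval could not be seen.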

Other observations

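Other remodelers differed between mitotic and other tumor-like nuclei of the same tumor, and those called were higher. By edgeR's quasi-likelihood test with Benjamini-Hochberg adjustment, 12 of 83 tested genes of the 6 remodeler lists were called higher (14.5%, against 5.78% of all genes) and 0 lower (4.36% of all genes). DESeq2 called 11 higher and 0 lower. Of the list of ChAHP partners, the heterochromatin protein Cbx5 was higher by 0.42 ± 0.05 on the log2 scale (adjusted p = 2.45e-05). The heterochromatin protein Cbx1 of the same list was higher by 0.26 ± 0.05 (adjusted p = 0.00212). The NuRD partners Gatad2b and Rbbp7 were higher by 0.14 ± 0.04 and 0.24 ± 0.07 (adjusted p of 0.0276 and 0.0197).

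Ttf2, which releases RNA polymerase from chromosomes, had the largest of these differences at 0.86 ± 0.11, and the replication fork remodeler Zranb3 had 0.51 ± 0.09. The ISWI partner Baz1b was higher by 0.24 ± 0.04, Brd8 by 0.44 ± 0.06, Brd9 by 0.29 ± 0.08, Pbrm1 by 0.14 ± 0.04, Epc1 by 0.14 ± 0.04 (DESeq2 adjusted p = 0.094, not called) and the recombination ATPase Rad54l by 0.56 ± 0.13. Median differences of the lists ran from 0.01 for ISWI to 0.10 for NuRD partners, beside -0.03 over all genes.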
